A study of Mus musculus with 6 samples.

Results

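The 40 genes described here act at the G1/S boundary of the cell cycle and in DNA replication. They were taken by gene symbol from a fixed list and matched to the Ensembl genes of the count files, and all 40 were found among the 55487 genes listed there. All 40 also passed the filter on low counts, which kept 15691 genes. They lie on 16 chromosomes.

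RNA came from LSK cells (lineage negative, c-KIT positive, SCA1 positive), a sorted marrow population of blood stem cells and early progenitors. The 6 libraries are 3 of wild type mice (WT) and 3 of Brm-/- mice (BrmKO), with C56Bl/6 as the strain background of both. Brm, now named Smarca2, is an ATPase that powers SWI/SNF chromatin remodelling, and the study set expression without it against wild type. No treatment is named for either group, with age, sex, the Brm allele and the tissue range of its loss not given in the sources used here.

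Before S phase, the origin recognition complex, CDC6 and CDT1 load the ring-shaped MCM helicase onto DNA, which licenses origins. Cyclin E with CDK2, and the DBF4-dependent kinase, then fire the origins with the help of CDC45 and the GINS complex, while geminin blocks a new round of licensing. E2F transcription factors, held back by the retinoblastoma protein, drive most of these genes late in G1. In marrow, most long-term stem cells are quiescent whereas multipotent progenitors cycle, so replication transcripts in LSK RNA come from a mixture of cells.

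Reads in genes ranged from 28.01 to 36.46 M per library. Smarca2 stood at 174, 213 and 150.1 CPM (read counts scaled to a common library size by TMM) in WT and at 26.9, 26.5 and 27.9 CPM in BrmKO. The log2 fold change was -2.72 ± 0.13 (SE, edgeR adjusted p = 2.97e-05). Kit, a gene of the sort gate, ranged from 849 to 1031 CPM and Ly6a, which encodes SCA1, from 18.7 to 35.7 CPM. Summed over 8 gate genes the level was 2866 to 3124 CPM in WT and 3127 to 3228.5 CPM in BrmKO, and Flt3 and Hlf, markers of early progenitors and stem cells, each lay higher in every BrmKO library (0 of 8 passed in edgeR, DESeq2 or limma-voom, with Hlf at an unadjusted p under 0.05). Of 6 lists of 8 genes from cells outside the gate, 1, of platelets and megakaryocytes, had summed levels that did not overlap between genotypes. They were 673 to 898 CPM in WT and 446 to 617 CPM in BrmKO. In that list 4 of 7 tested genes lay lower in every BrmKO library, where 5.37% of all genes did. By edgeR 1, Pf4, passed the threshold, and 4 of the 7 had an unadjusted p under 0.05, all lower in BrmKO (2.71% of all genes). The DESeq2 test called 4 of 8 genes of that list and limma-voom 1 of 7. In the stroma and endothelium list the sums overlapped (189 to 365 CPM in WT, 186 to 237 CPM in BrmKO), but 4 of 8 genes, Lepr, Pdgfra, Kdr and Plvap, lay lower in every BrmKO library, where 5.37% of all genes did. None of these 4 passed in edgeR, although all 4 had an unadjusted p under 0.05, and DESeq2 called 3 and limma-voom 1 of the list. Much of the platelet sum was Itga2b (340 to 569 CPM in WT, 258 to 414 CPM in BrmKO). Much of the stroma sum was Pecam1 (146 to 158 CPM in WT, 140 to 165 CPM in BrmKO). Whether reads of these lists came from LSK cells or from cells outside the gate was not tested. The part of these cell types in the results was not tested either. Cd3e had no read in any library, Ly6g none in 4 libraries and Ms4a1 none in 3. Other genes of the same lists were well above 0. Over the 6 libraries Nkg7 ranged from 225 to 258 CPM and Lck from 47.0 to 70.3 CPM. Elane ranged from 355 to 521 CPM and Cd79b from 51.3 to 72.1 CPM. Both libraries numbered 3 stand apart: 8.41% and 9.29% of their reads lay outside genes, against 5.79% to 6.61% in the other 4. The labels do not say what the replicate number marks, so the comparison is also given without them.

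No member passed the test between genotypes. In edgeR's quasi-likelihood test, 0 of 40 passed an adjusted p of 0.05, where 0.14% of all tested genes did (0.0829% higher and 0.0574% lower in BrmKO). At an unadjusted p under 0.05 the count was also 0 of 40, against 5.85% of all genes (3.14% higher and 2.71% lower). DESeq2 and limma-voom likewise called 0. Fold changes of the members ran from -0.08 (Atad2) to 0.21 (Ccne1) on the log2 scale, with a median of 0.03 beside -0.01 over all genes. The log2 fold change was above 0 in 28 of 40 members and in 48.8% of all genes. That tilt depended on a library, since 20 of 40 lay above 0 without WT replicate 3, with a median of -0.0046. Only 2 members had groups that did not overlap, Cdc6 and Rrm2, both higher in BrmKO. Groups did not overlap in 11.1% of all genes, and 5.69% were higher in BrmKO.

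**Figure D1:**
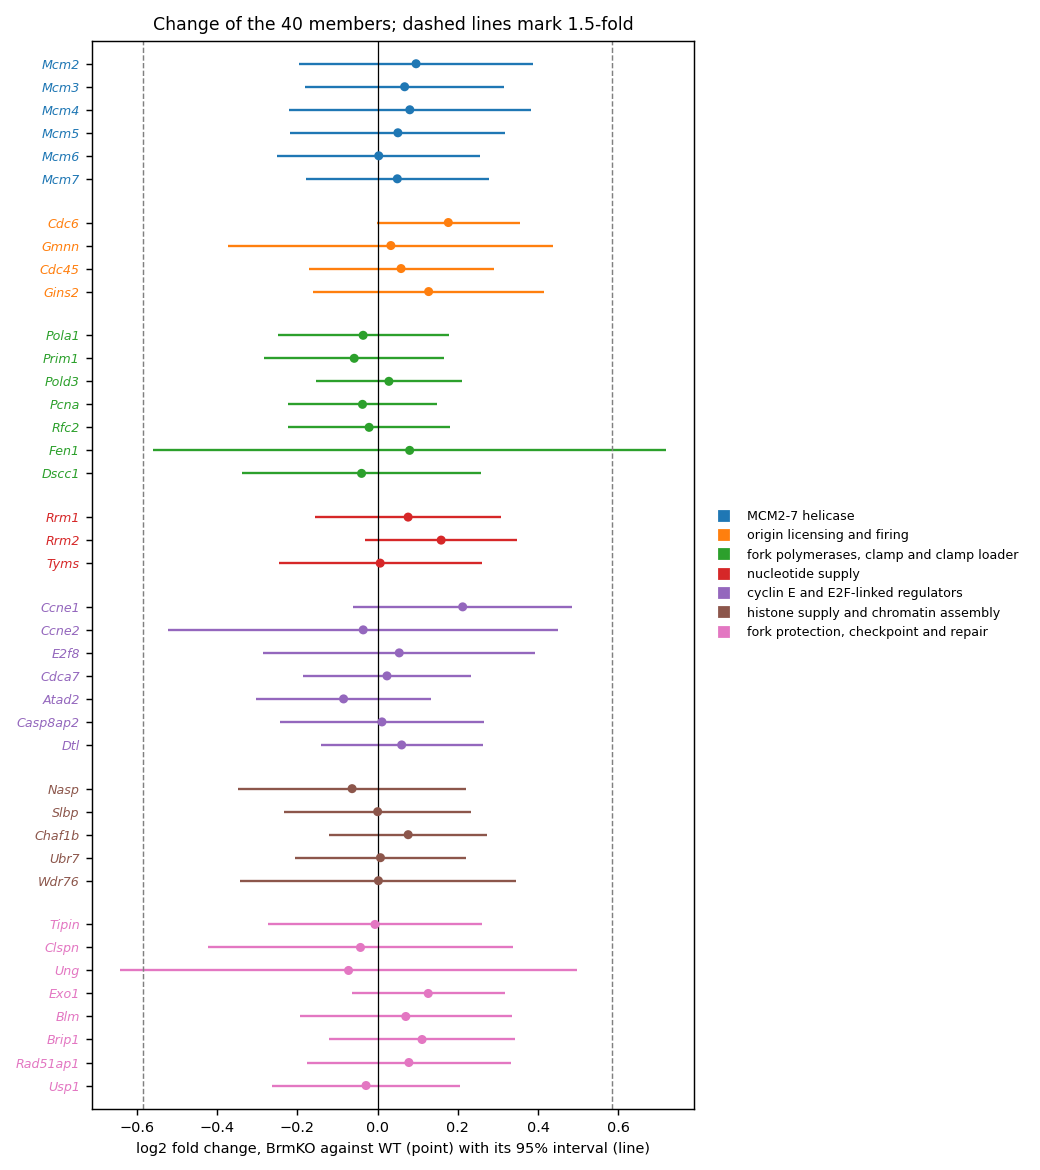
Log2 fold change of each member, BrmKO against WT (horizontal axis), with its 95% interval, genes grouped and coloured by role. All 40 intervals cross 0, and those of 38 genes lie inside the dashed lines at 1.5-fold.

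The intervals set how large a change these libraries leave room for. The 95% interval of the fold lay within 1.5-fold in either direction for 38 of 40 members and within 2-fold for all 40, beside 8582 of 15691 genes within 1.5-fold. The members' median level was 143 CPM against 22.2 CPM over all genes tested, and more reads narrow an interval. The median interval ran from 0.857-fold to 1.23-fold. Fen1, with 63 to 85 reads a library, had the widest interval, from 0.678-fold to 1.65-fold, and Ung reached down to 0.641-fold. In bulk RNA a smaller share of cells in S phase and less RNA per such cell cannot be told apart.

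Levels between genes were compared per kilobase of exon. The 40 members spanned from 0.912 ± 0.0590 CPM per kilobase for Fen1 to 234 ± 21.6 for Mcm6 (SD over 6 libraries). Fen1's place rests on the length used, since most of its exon bases are shared with other genes. With all its reads divided by the unshared bases alone it stood at 5.77, and Wdr76 was the lowest at 2.20. Mcm6, Mcm3, Mcm5, Mcm7 and Cdca7 held the top 5 places, each overlapping the range of the next. Pcna followed at 122 ± 4.82, below the range of Cdca7 and above that of Mcm4. At the other end, Clspn, Ung and Wdr76 stood at 3.17 ± 0.475, 2.57 ± 0.664 and 2.20 ± 0.187 CPM per kilobase, with ranges that overlapped between neighbours. In sum, the members held 0.881% to 0.992% of the reads in genes, and the 6 MCM subunits alone 0.380% to 0.469%.

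**Figure D2:**
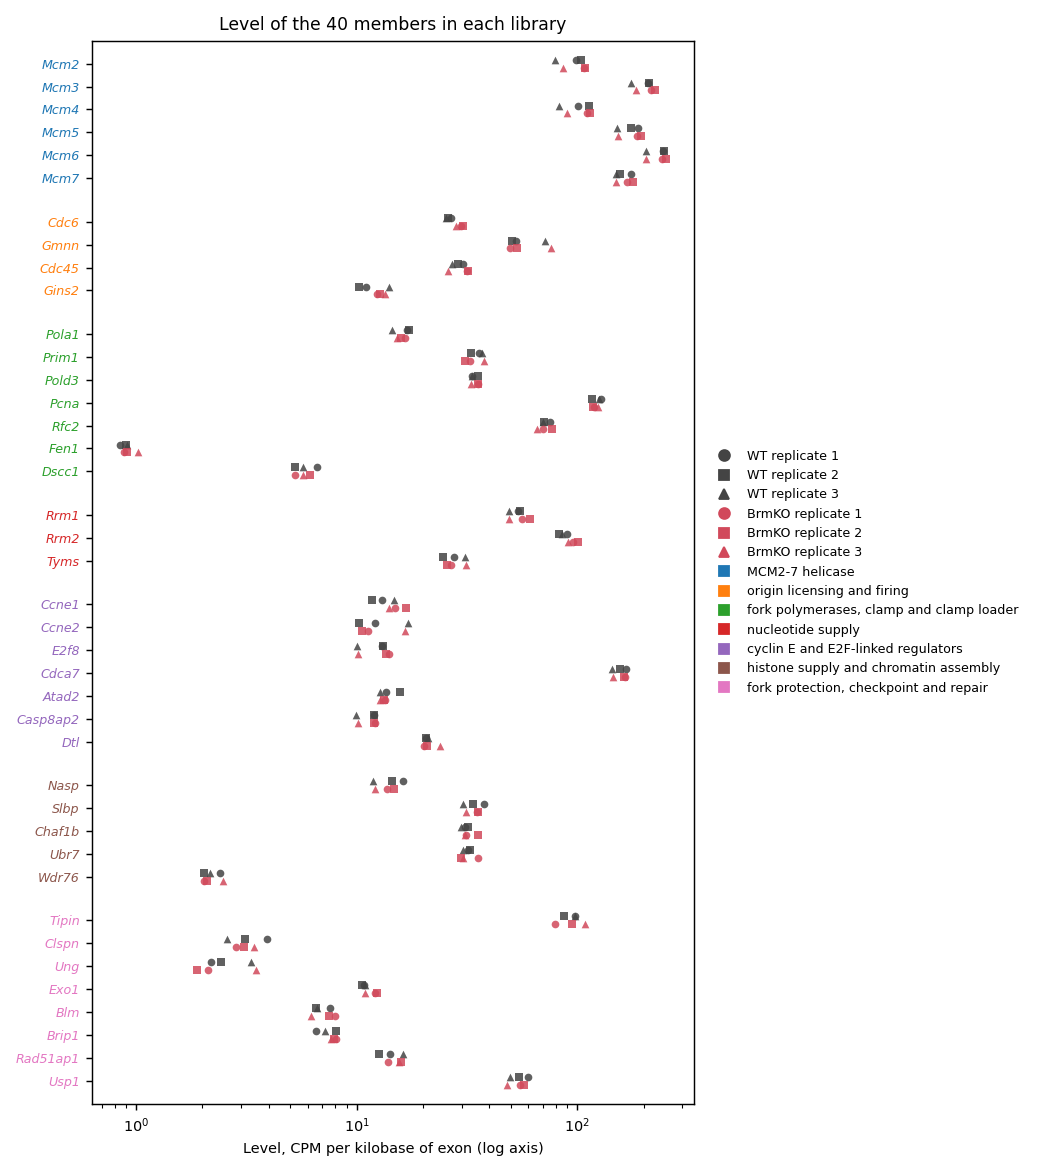
Level of each member in each of the 6 libraries, in CPM per kilobase of exon on a log axis, with genes grouped and coloured by role and libraries by genotype and replicate number. The spread between genes, from about 0.912 for Fen1 to 234 for Mcm6, is far wider than that between libraries. Most exon bases of Fen1 are shared with other genes, which may lower its level.

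The MCM helicase is a ring of MCM2, MCM3, MCM4, MCM5, MCM6 and MCM7 that unwinds DNA at the fork. Mcm6 stood at 1147, 1158 and 962 CPM in WT replicates 1 to 3 and 1126, 1186 and 962 CPM in BrmKO replicates 1 to 3. Mcm3 stood at 786, 798 and 661 CPM in WT and 812, 846 and 695 CPM in BrmKO. Mcm5 stood at 757, 699 and 608 CPM in WT and 744, 781 and 614 CPM in BrmKO. In these genes replicate 3 was the lowest library of either genotype, and the genotypes overlapped. Mcm7, whose gene also holds the microRNAs Mir25 and Mir93, stood at 773, 689.8 and 663 CPM in WT and 747, 792 and 661 CPM in BrmKO. Mcm2 stood at 689.5, 722 and 551 CPM in WT and 749, 751 and 597 CPM in BrmKO. Mcm4 stood at 363, 407 and 297 CPM in WT and 397, 409.9 and 322 CPM in BrmKO. BrmKO replicate 2 was the highest library for all 6 subunits, and WT replicate 3 the lowest for 5 of them. Their log2 fold changes lay between 0.003 for Mcm6 and 0.10 for Mcm2, with SEs of 0.10 to 0.13 and an adjusted p of 0.999 each (edgeR).

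Per kilobase of exon the subunits were not level. Mcm6 stood at 234 ± 21.6, Mcm3 at 204 ± 19.2, Mcm5 at 175 ± 18.6 and Mcm7 at 163 ± 12.9 CPM per kilobase, while Mcm4 and Mcm2 stood at 102 ± 13.2 and 97.3 ± 12.1. The ranges of the last pair did not reach those of the other 4 subunits. Mcm2's place rests on the length used, since by its longest transcript it stood at 194 and Mcm4 remained at 102. For Mcm7 the processed pseudogene Gm5487 shares 97.7% of its bases over 72.8% of the transcript and had 39 to 57 reads a library, so some reads cannot be placed.

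E2F proteins bind a short GC-rich core, and promoters of the members were searched for its best-known forms. The motifs TTTCCCGC, TTTGGCGC, TTTCGCGC and TTTGCCGC were sought on both strands in the 250 bases before each RefSeq start (GRCm38.p6). Windows were found for 30 of the 40 members, 33 windows in all. A match stood in 8 of 33 windows (24.2%), beside 1.86% of all 32851 windows of this length. The same search found one in 18.3% of 60 windows of other replication genes and in 5.77% of 52 windows of G2/M genes. CCAAT, the core bound by NF-Y, or its reverse complement stood in 66.7% of the member windows and 33.8% of all windows, beside 39 of 52 windows of G2/M genes and 26 of 60 of other replication genes. The windows differed in base content, with a median GC of 58.8% for the members and 52.4% over all windows. It was 64.2% for other replication genes and 59.6% for G2/M genes. The part of GC content in these shares was not tested. A match is a description of the letters and not evidence of binding. The 4 windows below have the most matches among the members, ties being ordered by the p of the genotype comparison, and E2F-type matches are in capitals.
Mcm6 (chr1:128359706-128359955, minus strand): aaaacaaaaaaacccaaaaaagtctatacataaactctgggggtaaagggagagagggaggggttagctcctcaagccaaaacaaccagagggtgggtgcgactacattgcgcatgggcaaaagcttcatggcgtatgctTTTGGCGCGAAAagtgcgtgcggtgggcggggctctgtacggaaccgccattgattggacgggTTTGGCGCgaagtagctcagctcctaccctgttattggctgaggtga
Mcm5 (chr8:75109259-75109508, plus strand): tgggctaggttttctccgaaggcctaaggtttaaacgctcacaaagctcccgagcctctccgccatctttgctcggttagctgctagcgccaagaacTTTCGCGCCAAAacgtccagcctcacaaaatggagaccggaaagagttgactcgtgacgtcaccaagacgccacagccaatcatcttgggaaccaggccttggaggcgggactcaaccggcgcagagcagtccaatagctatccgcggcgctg
Cdc6 (chr11:98907901-98908150, plus strand): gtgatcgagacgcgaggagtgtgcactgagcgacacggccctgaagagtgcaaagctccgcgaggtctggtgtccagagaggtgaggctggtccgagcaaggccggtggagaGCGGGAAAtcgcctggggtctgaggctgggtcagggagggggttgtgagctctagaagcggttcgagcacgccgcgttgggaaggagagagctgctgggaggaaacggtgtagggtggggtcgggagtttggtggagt
Dtl (chr1:191575545-191575794, minus strand): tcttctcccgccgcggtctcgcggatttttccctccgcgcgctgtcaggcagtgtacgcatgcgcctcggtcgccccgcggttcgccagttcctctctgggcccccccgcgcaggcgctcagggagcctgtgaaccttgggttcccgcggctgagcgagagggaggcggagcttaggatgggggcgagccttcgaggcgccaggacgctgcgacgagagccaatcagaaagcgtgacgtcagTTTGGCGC
In the Mcm6 window, matches on opposite strands begin 110 and 106 bases before the start and overlap, and another begins 47 bases before it. In the Mcm5 window, overlapping matches begin 153 and 149 bases before the start. Cdc6 and Dtl have 1 match each, 138 and 8 bases before the start. The GENCODE annotation used for exon lengths starts Cdc6 at 98907801, so its window before the RefSeq start lies inside that annotated gene.

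Among licensing and firing genes, 0 of 4 passed. Cdc6, the loader of the MCM ring, had the smallest p of all members. It stood at 139, 135 and 133 CPM in WT and 156, 158 and 147 CPM in BrmKO, so that every BrmKO library lay above every WT library. The log2 fold change was 0.18 ± 0.08 (edgeR, unadjusted p = 0.0512, adjusted p = 0.841). Gmnn, which encodes the licensing inhibitor geminin, stood at 77.7, 74.1 and 105 CPM in WT and 72.9, 77.8 and 111 CPM in BrmKO. Both libraries numbered 3 were high and the other 4 lay close together, whatever the genotype. Gins2, a GINS subunit, stood at 45.1, 42.1 and 57.7 CPM in WT and 50.5, 52.5 and 55.1 CPM in BrmKO, with a log2 fold change of 0.13 ± 0.13. Cdc45, the helicase co-factor, ranged from 91.1 to 112 CPM over the 6 libraries, with a log2 fold change of 0.06 ± 0.10.

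The ratio of Cdc6 to Gmnn sets a factor of G1 licensing against the inhibitor of S and G2. Per kilobase the WT libraries gave 0.503, 0.511 and 0.357, and the BrmKO libraries 0.599, 0.569 and 0.370. The genotypes overlapped because replicate 3 was low in both (exact permutation p = 0.5, two-sided, adjusted p = 0.5 over 3 ratios, and 0.1 is the smallest p that 3 against 3 allow). The log2 difference of the ratio, BrmKO minus WT, was 0.15, and it was 0.20 without both libraries numbered 3, -0.016 without WT replicate 3 and 0.37 without BrmKO replicate 3. Gmnn alone had a log2 fold change of 0.03 ± 0.18, and of -0.01 ± 0.09 without both libraries numbered 3.

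Of the polymerase, clamp and clamp loader genes, 0 of 7 passed, with log2 fold changes between -0.06 and 0.08. Their median SD within a genotype, 0.0889 on the log2 scale, was the smallest of the 7 role groups. Pcna, the sliding clamp, ranged from 281 to 309 CPM over all libraries and had a log2 fold change of -0.04 ± 0.08. Pold3, a subunit of DNA polymerase delta, ranged from 152 to 164 CPM. Prim1, the catalytic primase subunit, ranged from 120.1 to 147 CPM and Pola1, the catalytic subunit of polymerase alpha, from 128 to 153 CPM. Rfc2 of the clamp loader ranged from 415 to 486 CPM and Dscc1, of the alternative loader used in cohesion, from 23.2 to 29.4 CPM. Log2 fold changes were below 0 for 5 of the 7, and each interval included 0. For Pcna, the pseudogene Pcna-ps2 shares 99.2% of its bases over 51.4% of the transcript and had 34 to 60 reads a library.

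Fen1, the flap endonuclease that trims Okazaki fragments, had the lowest count of any member. It stood at 2.04, 2.18 and 2.22 CPM in WT and 2.14, 2.19 and 2.47 CPM in BrmKO. Of its exon bases, 84.2% are shared with genes annotated on the opposite strand, 78.8% with Gm10143 and 5.37% with Tmem258. The kit does not mark strand, and the counting program sets aside reads that fall in more than 1 gene when strand is not used. Over the 6 libraries, 5.79% to 9.29% of reads lay outside genes and 6.2% to 6.5% were ambiguous. Whether the counting set strand aside was not tested against these shares. The processing notes do not state it, so these counts are uncertain as a level of Fen1. Gins2 shares 67.3% of its exon bases with Gse1 on the opposite strand, Ccne2 17.4% with Ints8 and Rfc2 15.1% with Lat2, and their levels carry the same doubt.

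Genes of nucleotide supply encode ribonucleotide reductase, which makes deoxynucleotides, and thymidylate synthase, and 0 of 3 passed. Rrm2, the small subunit whose level follows S phase, stood at 249.8, 229 and 236 CPM in WT and 266, 279.7 and 252 CPM in BrmKO. All BrmKO libraries lay above all WT libraries, by as little as 252 against 249.8 CPM. Its log2 fold change was 0.16 ± 0.08 (edgeR, unadjusted p = 0.0918, adjusted p = 0.913). Rrm1, the large subunit, stood at 592, 606 and 538 CPM in WT and 620.4, 670.5 and 539 CPM in BrmKO. Per kilobase the ratio of Rrm2 to Rrm1 was 1.677, 1.5001 and 1.744 in the WT libraries and 1.705, 1.658 and 1.855 in those of BrmKO, which overlapped (exact permutation p = 0.5, two-sided). Tyms, thymidylate synthase, ranged from 150.3 to 190.2 CPM and was highest in both libraries numbered 3.

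Cyclin E activates CDK2 at the G1/S boundary and has a pair of genes with a different pattern across these libraries. Ccne1 stood at 34.8, 31.4 and 39.1 CPM in WT and 39.95, 44.7 and 37.4 CPM in BrmKO, for a log2 fold change of 0.21 ± 0.12 (edgeR, adjusted p = 0.945). Ccne2 stood at 42.4, 35.8 and 59.7 CPM in WT and 39.3, 37.0 and 58.0 CPM in BrmKO, for a log2 fold change of -0.04 ± 0.22 (edgeR, adjusted p = 0.999). Ccne2 thus split the libraries by number and not by genotype, while Ccne1 overlapped on both counts. Their ratio per kilobase, Ccne2 to Ccne1, was 0.928, 0.868 and 1.16 for WT and 0.750, 0.630 and 1.18 for BrmKO (exact permutation p = 0.5, two-sided). The log2 difference of that ratio was -0.25, and it was -0.38 without both libraries numbered 3, -0.51 without BrmKO replicate 3 and -0.055 without BrmKO replicate 2. Ccne2 alone had a log2 fold change of -0.03 ± 0.12 without both libraries numbered 3.

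Of the E2F-linked regulators, E2f8, a repressor of the E2F family, stood at 71.3, 71.8 and 54.5 CPM in WT and 76.2, 73.9 and 55.2 CPM in BrmKO. It was low in both libraries numbered 3. Atad2, a bromodomain ATPase, stood at 218, 252 and 204 CPM in WT and 217, 214 and 205 CPM in BrmKO and had the lowest log2 fold change of the members, -0.08 ± 0.10. Dtl, the adaptor through which the CRL4 ligase degrades CDT1, stood at 282, 282 and 288 CPM in WT and at 277, 285 and 326 CPM in BrmKO. Cdca7, a chromatin factor induced by E2F and MYC, ranged from 460.4 to 531 CPM and Casp8ap2, a nuclear body protein needed for histone gene expression, from 67.5 to 83.0 CPM. In this group of 7, with the cyclins, 0 passed.

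Histone supply and chromatin assembly genes had 0 of 5 past the threshold. Chaf1b, a subunit of the assembly factor CAF-1, stood at 145, 151 and 139 CPM in WT and 147, 166 and 145 CPM in BrmKO, for a log2 fold change of 0.08 ± 0.09. Slbp, which binds the stem-loop of histone mRNAs, ranged from 184 to 231 CPM and Nasp, a histone chaperone, from 88.8 to 122 CPM. Ubr7 ranged from 97.1 to 116 CPM and Wdr76 from 12.8 to 15.6 CPM. Within each genotype, Slbp and Nasp were lowest in replicate 3.

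Fork protection, checkpoint and repair genes had 0 of 8 past the threshold, with 4 log2 fold changes above 0 and 4 below. Exo1, an exonuclease of mismatch repair and end resection, stood at 90.8, 89.5 and 92.3 CPM in WT and 102, 104 and 92.0 CPM in BrmKO. Replicates 1 and 2 of BrmKO lay above all WT libraries and replicate 3 did not, for a log2 fold change of 0.13 ± 0.08 (edgeR, adjusted p = 0.981). Brip1, a helicase that works with BRCA1, stood at 48.9, 60.3 and 53.7 CPM in WT and 60.0, 58.8 and 57.1 CPM in BrmKO, with a log2 fold change of 0.11 ± 0.10. Ung, the uracil glycosylase, stood at 11.9, 13.2 and 18.1 CPM in WT and 11.6, 10.4 and 19.05 CPM in BrmKO. It had the largest spread of any member within BrmKO, a coefficient of variation of 34.2%. Tipin, a fork protection partner of Timeless, ranged from 148 to 202 CPM, and Clspn, the adaptor for checkpoint kinase CHK1, from 18.5 to 28.3 CPM. Blm, a RecQ helicase, ranged from 54.6 to 70.2 CPM, Rad51ap1 from 60.8 to 78.3 CPM, and Usp1, a deubiquitinase of PCNA and FANCD2, from 179 to 222 CPM.

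The members' levels also divided the libraries by replicate number. Both libraries numbered 3 lay below the other 4 for 16 of 40 members, where 16.7% of all genes did, and above them for 9 of 40, where 17.3% did. Of the G2/M genes, 23 of 53 lay below (43.4%) and 6 above (11.3%). Of the other replication genes tested, 33.3% lay below and 22.8% above. Neither share is thus shown to be particular to the members. All 6 MCM subunits were among the 16, with Cdc45, Pola1, Rrm1, E2f8, Cdca7, Atad2, Casp8ap2, Nasp, Slbp and Usp1. The 9 above were Gmnn, Gins2, Prim1, Fen1, Tyms, Ccne2, Dtl, Tipin and Ung. The mean log2 difference of the libraries numbered 3 from the other 4 was largest for Ung (0.66), Ccne2 (0.61) and Gmnn (0.51) above, and for E2f8 (-0.42), Mcm4 (-0.35) and Mcm2 (-0.34) below. This grouping was chosen after the values were seen and was not tested. The longest transcripts of the 9 and of the 16 had median GC contents of 46.7% and 46.4% and median lengths of 3099 and 3535 bases. The share of reads outside genes moved with the pattern. Of the 6 lists from outside the gate, none had summed levels in libraries numbered 3 apart from the other 4. By the mean log2 deviation per gene, however, both were above the other 4 for erythroid genes (0.634 and 0.275, against at most -0.04) and for monocyte and granulocyte genes (0.429 and 0.195, against at most 0.073). Of 8 erythroid genes, 3 lay above in both libraries numbered 3, as did 2 of 7 monocyte and granulocyte genes. The part of these measures in the pattern was not tested.

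**Figure D3:**
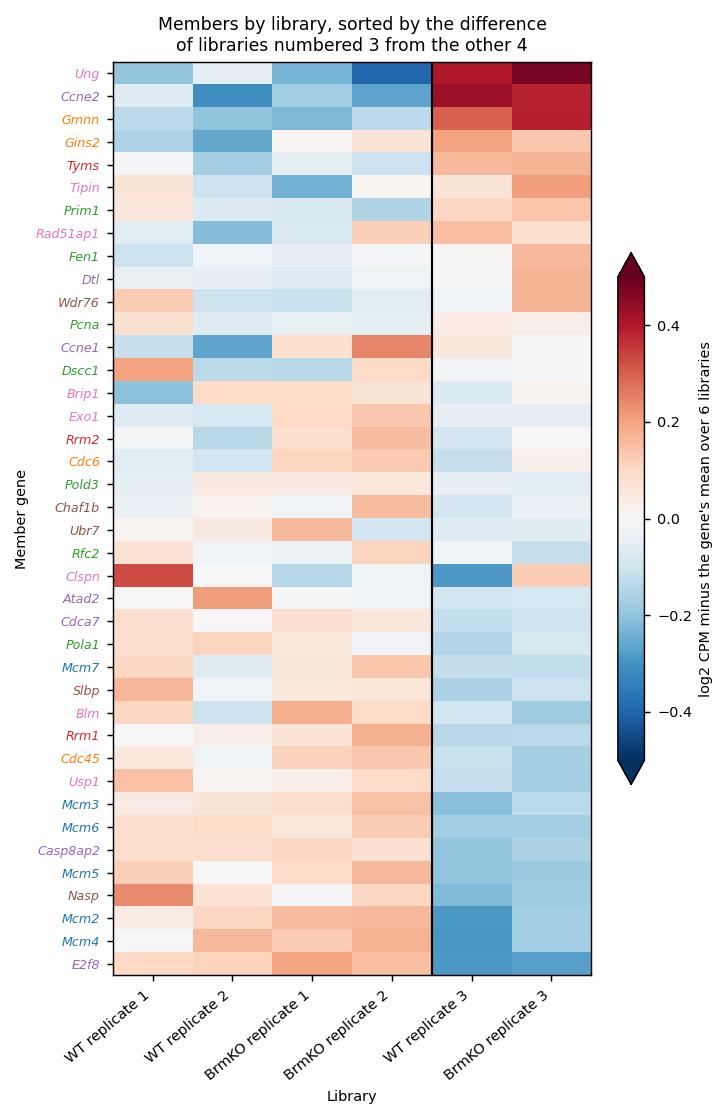
Log2 CPM of each member (1 line per gene) in each library (columns) minus the gene's mean over the 6 libraries, sorted by the difference of the libraries numbered 3 from the other 4, with gene names coloured by the same roles as in the plot of levels. In the columns right of the line, Ung, Ccne2 and Gmnn are high and E2f8, Mcm4 and Mcm2 are low in both genotypes.

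Without both libraries numbered 3, leaving 2 against 2, 0 of 40 members passed (lowest adjusted p = 0.362, edgeR). There 5 members had an unadjusted p under 0.05, all higher in BrmKO, while 5.22% of all genes did so in that direction. They were Ccne1 (0.35 ± 0.12), Gins2 (0.24 ± 0.10), Cdc6 (0.19 ± 0.07), Rrm2 (0.19 ± 0.07) and Exo1 (0.19 ± 0.08), as log2 fold changes ± SE. Fewer members reached an unadjusted p under 0.05 in the other fits, all higher in BrmKO (edgeR). They were Gins2 and Ccne1 without WT replicate 3 (4.37% of all genes), Cdc6 without BrmKO replicate 3 (3.71%), and Cdc6 and Rrm2 with the replicate number as a block (4.89%). With upper-quartile scaling it was Cdc6 alone. Over 14 alternative fits, including each library left out in turn, 13 of 40 members kept the sign of their log2 fold change. Those above 0 throughout were Cdc6, Cdc45, Gins2, Pold3, Fen1, Rrm1, Rrm2, Ccne1, Chaf1b, Exo1 and Brip1, and those below 0 throughout were Prim1 and Pcna. The adjusted p of a member was never below 0.362 in these fits.

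Other genes of the pathway gave the same count. Of 58 further replication genes, 57 were tested and 0 passed in edgeR, with 0 at an unadjusted p under 0.05, and 36 lay above 0 (median log2 fold change 0.02). DESeq2 and limma-voom also called 0. Rrm2b, the p53-inducible reductase subunit, had the smallest p and stood at 7.04, 7.42 and 8.05 CPM in WT and 5.72, 4.11 and 6.34 CPM in BrmKO (log2 fold change -0.48 ± 0.22, edgeR adjusted p = 0.871). Mtbp, which acts with Ticrr in origin firing, and Timeless, the partner of Tipin, had log2 fold changes of 0.27 ± 0.13 and 0.24 ± 0.12. Of these 57, 13 lay above and 19 below in both libraries numbered 3.

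Among 18 genes of the E2F, RB and DREAM complexes, 0 passed and 0 had an unadjusted p under 0.05 (edgeR). The DREAM subunit Lin37, the pocket protein Rbl2 and Rb1 led by p, at log2 fold changes of 0.18 ± 0.10, 0.14 ± 0.09 and -0.16 ± 0.12. Of 17 G1 cyclins, kinases and inhibitors, 15 were tested, 0 passed and 1 had an unadjusted p under 0.05. That gene was Cdkn2c, which encodes the CDK4 and CDK6 inhibitor p18, at 30.7, 30.3 and 22.6 CPM in WT and 37.9, 41.6 and 35.6 CPM in BrmKO (log2 fold change 0.46 ± 0.14, edgeR adjusted p = 0.568). By p, Cdkn1c and Cdkn1b followed with log2 fold changes of 0.62 ± 0.35 and -0.21 ± 0.13.

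G2/M genes act after replication. By edgeR 0 of 53 passed, with 3 at an unadjusted p below 0.05, and 38 lay above 0, the median log2 fold change being 0.06 beside 0.03 for the members. Without both libraries numbered 3, 11 of the 53 had an unadjusted p under 0.05, all higher in BrmKO, where 10.2% of all genes did in either direction and 5.22% higher. DESeq2 and limma-voom called 0 of this list and of the E2F and G1 lists. Among the G2/M genes, groups did not overlap in 8 genes higher and 1 lower in BrmKO (5.69% and 5.37% of all genes). The smallest p belonged to Ect2, Cbx5 and Plk1, at log2 fold changes of 0.27 ± 0.08, -0.23 ± 0.09 and 0.31 ± 0.13. The difference between the lists was not tested.

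**Figure D4:**
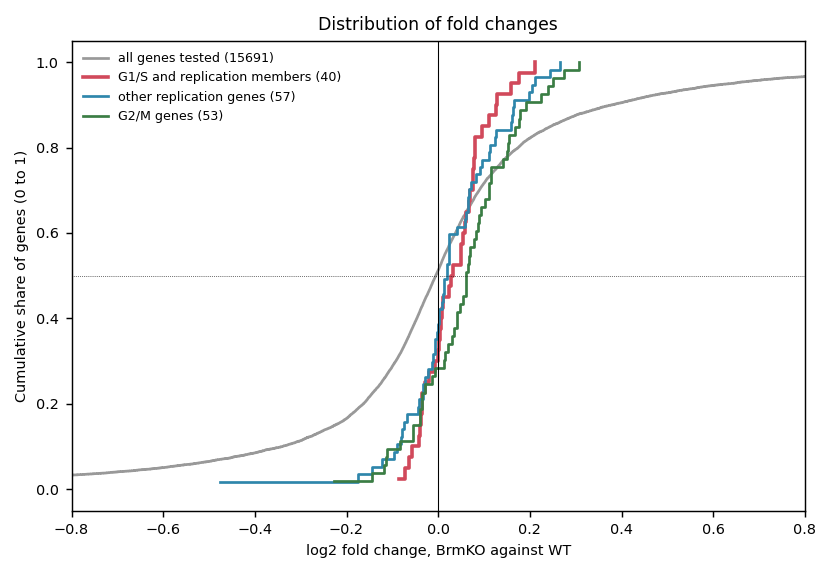
Cumulative share of genes (vertical axis) at or below each log2 fold change, BrmKO against WT (horizontal axis, cropped at 0.8 either side), for the 40 members, 57 other replication genes, 53 G2/M genes and all 15691 genes tested. The members lie between -0.08 and 0.21, with a median of 0.03, inside the wider curve of all genes.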

How the data were processed

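Per the labels' protocols, lineage-depleted marrow was sorted for LSK cells, and polyadenylated RNA was made into libraries with SMART-Seq v4, a kit without strand marks or molecular identifiers. The authors deposited raw counts of reads for each Ensembl gene. Per the submitters' processing notes, bcl2fastq, FastQC, STAR, HTSeq and DESeq2 were used with GRCm38. Their versions, the annotation release and the strand setting were not given in the sources used here. Rows naming no gene (5.79% to 9.29% of reads outside genes, 6.23% to 6.47% ambiguous) were left out.

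Symbols, positions and exon lengths came from GENCODE M21 (55227 of 55487 genes matched). BrmKO was compared with WT, 3 libraries each, by edgeR 4.0.16 (quasi-likelihood, robust, TMM, filterByExpr; R 4.3.3), with Benjamini-Hochberg adjustment over all 15691 tested genes and a threshold of 0.05. SEs and 95% intervals derive from its F statistic. Levels are CPM on TMM-scaled sizes, and per-length levels divide by the union of exons. DESeq2 1.42.0 and limma 3.58.1 were alternatives. Copies were sought with minimap2 2.31 (95% identity over 50% of the transcript). The test was tried on simulated data. The log2 deviations use a prior count of 2. Counts of all library pairs differed beyond sampling (lowest chi-square 14.3 a degree of freedom). P-values of the main fit set the genotype difference against the spread between libraries of a genotype.

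The members and lists were chosen with earlier results of these data known. All members could be named. Every library's value was given for the MCM subunits, the highest and lowest member per length, the 8 smallest p and the members of 3 ratios; some others were added after their values were seen. Of other lists, up to 3 genes with the smallest p were named.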

Additional observations from a re-analysis of the deposited data

How the results depend on the processing

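The member count of 0 past the threshold held in all 14 alternative fits, and so did that of the other replication genes. The number of all genes that passed was 22, against 58 with no low-count filter and 141 with the DESeq2 test, and 6 to 36 with 1 library left out (6, 7 and 36 when WT replicate 2, 1 or 3 was dropped and 9 for BrmKO replicate 1). The members' median log2 fold change was 0.0308, and it ran from -0.0046 (without WT replicate 3) to 0.0625 (without WT replicate 1) with 1 library left out. For the other replication genes it was 0.0183 and ran from 0.0112 to 0.0475, the latter without BrmKO replicate 3. The cause was not tested. The replicate numbers do not show that libraries are paired throughout. Same-numbered deviations from the group means correlated at 0.052, 0.008 and 0.194, and WT replicate 2 was closest to BrmKO replicate 1 (0.168). The libraries numbered 3 were alike, with a chi-square of 20.5 a degree of freedom between them. It was 44.6 and 48.7 from WT replicate 3 to the other WT libraries, and 35.4 and 32.0 from BrmKO replicate 3 to the other BrmKO libraries. What they share was not tested. With the replicate number as a block, 25 genes and 0 members passed, with a member median of 0.026, and Cdc6 and Rrm2 had adjusted p of 0.438 and 0.515 (edgeR). The block lowered the SEs of the MCM subunits to between 0.046 (Mcm6) and 0.061 (Mcm7). With it 9.23% of all genes had an unadjusted p under 0.05, against 5.85% without it. With 1 library left out, the log2 difference of the ratio ran from -0.016 to 0.3718 for Cdc6 to Gmnn, from -0.5088 to -0.055 for Ccne2 to Ccne1 and from 0.0229 to 0.1316 for Rrm2 to Rrm1. Fen1 had the fewest reads of the members, 63 to 85 a library, and 84.2% of its exon bases are shared with other genes.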

Other observations

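Per-length levels were also computed by dividing all reads of a gene by the exon bases that no other annotated gene shares. This alternative was added after the data were seen. It takes every counted read to lie in unshared bases, which was not tested. Fen1 then stood at 5.77 CPM per kilobase in place of 0.912, over 383 unshared bases, and ranked 37 of 40. Gins2 stood at 37.7 in place of 12.3 and ranked 15, and Mcm7 stood at 186 in place of 163. Wdr76, which shares no exon base, was then the lowest at 2.20.

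Usp1 has a processed pseudogene copy, Gm5841, with 97.9% identity over 60.9% of its transcript, which had 2 to 11 reads a library. Gm10143, the gene opposite Fen1, had 24 to 52 reads a library, all below the 63 to 85 reads of Fen1.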
